A study of Mus musculus with 13 samples.

Results

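The genes described here encode the matrix metalloproteinases (MMPs), the ADAM and ADAMTS metalloproteases, the ADAMTS-like proteins and the tissue inhibitors of metalloproteinases (TIMPs). They were chosen by gene symbol from a list of these families, and all 50 were found among the 26264 genes of the tables: 39 proteases (14 MMPs, 8 ADAMs with a zinc-binding active site and 17 ADAMTS enzymes), 4 TIMPs, 5 ADAMTS-like genes, and Adam22 and Adam23, whose proteins lack that active site. RNA was measured in the right ventricle of mice: 6 wild-type libraries and 7 libraries from Dsg2 F536C knock-in mice, which carry a changed desmoglein-2, a cadherin of the desmosome that joins heart muscle cells, and model arrhythmogenic cardiomyopathy. No sex, age, strain, litter or zygosity is given in the labels, nor whether the libraries come from separate animals; p-values therefore rest on the spread among these 13 libraries, which may be technical. Estimated reads assigned to genes summed to between 14498336 and 29848597 per library. Dsg2 itself was at 84.3 to 116 CPM (read counts relative to library size after TMM scaling) in wild-type libraries, and knock-in libraries were lower without overlap, at 33.4 to 61.9 CPM.

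The libraries of knock-in 4, 5 and 6 were unlike the other 10. Between 10.2% and 10.7% of their gene values were not whole numbers, against 3.07% to 3.79% elsewhere, and Krt8, a keratin of simple epithelia, was at 842 to 1016 TPM (transcript abundance corrected for transcript length) against at most 5.66 TPM in any other library. Each comparison is therefore given over all 13 libraries and over the 10 libraries without these 3. Of 8 cardiomyocyte markers, all were detected, with a summed level of 63096 to 82510 TPM in wild type, 41584 to 60023 TPM in knock-in 1, 2, 3 and 7, and 35297 to 36249 TPM in knock-in 4, 5 and 6. In bulk tissue, fewer cells of a type and less RNA per cell cannot be told apart.

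MMPs are made as inactive zymogens, most of them secreted and some anchored in the membrane, and cut collagens, proteoglycans and other extracellular proteins once the prodomain is removed. ADAMs are membrane proteases that release the outer parts of growth factors, cytokines and receptors, whereas ADAMTS enzymes are secreted and process procollagens, versican-type proteoglycans and microfibril proteins. TIMPs bind the active sites of many of these enzymes and block them, though not every TIMP blocks every enzyme. In the heart the balance of these proteases and inhibitors is known to set how the collagen network turns over. Only RNA was measured here, so neither protein nor enzyme activity is reported.

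In knock-in ventricles more genes of these families were higher than lower. Over all 13 libraries 24 of the 47 members tested (51.1%) were higher and 4 were lower at an adjusted p under 0.05 (edgeR's quasi-likelihood test with Benjamini-Hochberg adjustment). Of all 14588 genes tested there, 44.6% passed, 23.6% higher and 21.0% lower. Over 10 libraries 26 were higher (55.3%) and 4 lower, beside 43.7% of 14518 genes called, 22.3% higher and 21.3% lower. Tested members had a median log2 fold change of 0.55 over 13 libraries and 0.45 over 10, beside 0.08 and 0.02 for all genes. Called in one direction in both comparisons were 22 members higher and 4 lower. Bracketed pairs of values are log2 fold changes in the order 13 libraries, then 10. Scaling by library totals in place of TMM moved the median of all genes to 0.33 and 0.26, and then gave 30 higher and 3 lower members over 13 libraries, and 32 and 1 over 10. On the TPM scale, log2(TPM + 1), that median was 0.38 and 0.32, and 28 and 32 members were higher and 1 lower in each comparison.

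**Figure D1:**
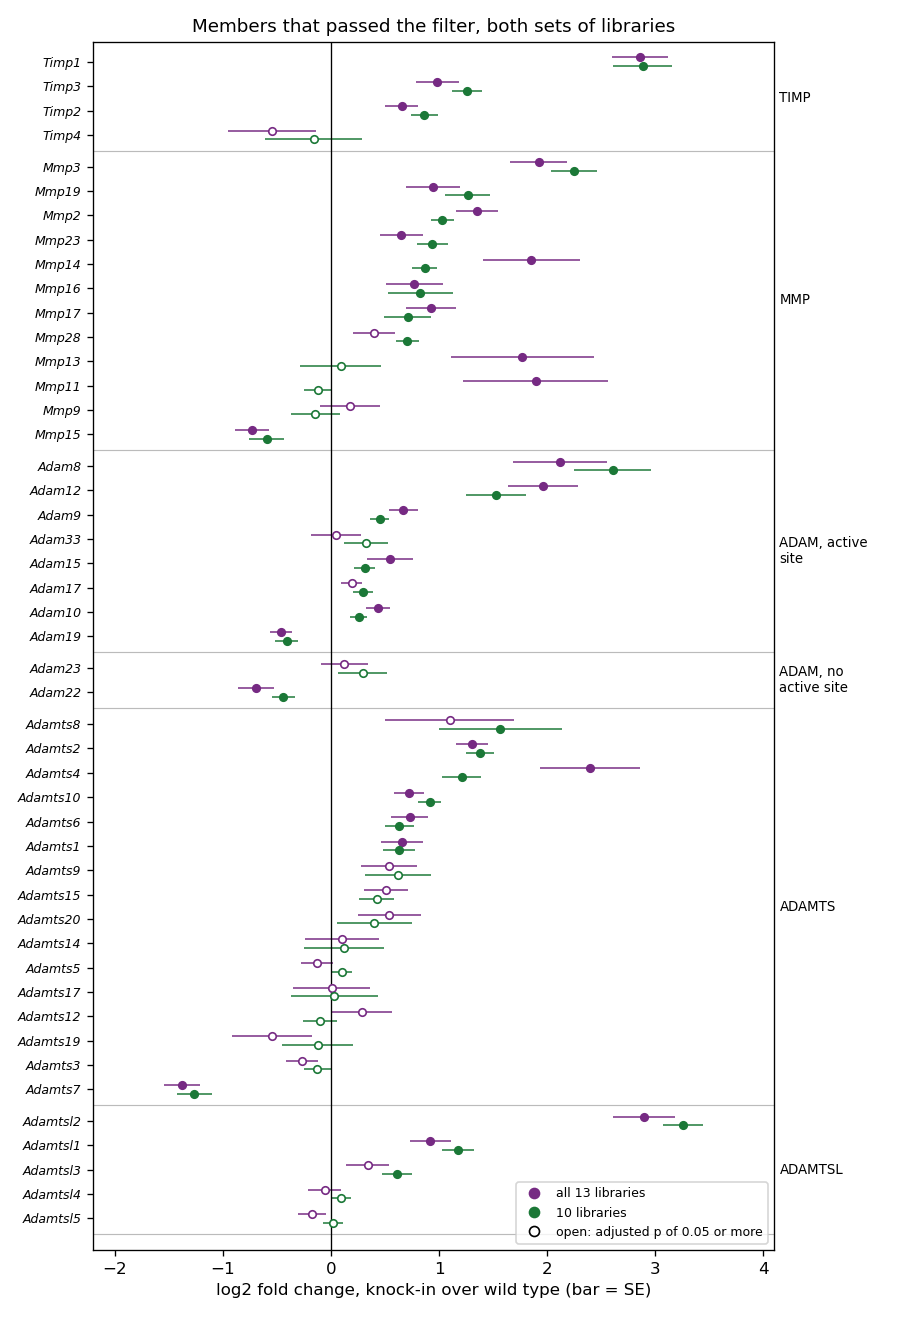
Log2 fold changes (horizontal axis, knock-in over wild type, bars are SE) of the 47 members that passed the filter on low counts, grouped by class, over all 13 libraries (purple) and over the 10 without knock-in 4, 5 and 6 (green). Open points have an adjusted p of 0.05 or more; Adamtsl2 and Timp1 lie farthest to the right in both comparisons and Adamts7 farthest to the left.

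Among the inhibitors, Timp1, Timp2 and Timp3 rose and Timp4 did not pass the test in either comparison. In wild type the levels per length spanned a wide range: Timp3, which binds to the extracellular matrix, had a median of 85.2 TPM (75.8 to 125) and Timp2 of 67.0 TPM (58.1 to 85.5), the highest of all 50 members, with overlapping ranges. Timp4, known for its high level in heart, followed at 9.34 TPM (5.46 to 14.1) and Timp1 at 4.41 TPM (3.13 to 9.79). Timp1, the inhibitor known to be induced by inflammatory and fibrotic signals, was at 2.19, 2.83 and 5.90 CPM (lowest, median and highest) in wild type. It reached 21.4, 23.9, 15.8 and 35.2 CPM in knock-in 1, 2, 3 and 7 and 29.0, 23.2 and 17.2 CPM in knock-in 4, 5 and 6. Every knock-in library lay above every wild-type library, and both sets of knock-in libraries covered about the same range. Its log2 fold change was 2.86 ± 0.26 (SE, adjusted p = 6.57e-06) over 13 libraries and 2.88 ± 0.28 (adjusted p = 1.34e-05) over 10.

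The start of Timp1 is shown because it is the inhibitor with the largest fold change in both comparisons. The 250 bases before its RefSeq start (GRCm38.p6, chrX:20869916-20870165, plus strand) lie inside Syn1, a synapsin gene, and the capitals mark a GC box (GGGCGG, searched on both strands), 8 bases before the start.
Timp1: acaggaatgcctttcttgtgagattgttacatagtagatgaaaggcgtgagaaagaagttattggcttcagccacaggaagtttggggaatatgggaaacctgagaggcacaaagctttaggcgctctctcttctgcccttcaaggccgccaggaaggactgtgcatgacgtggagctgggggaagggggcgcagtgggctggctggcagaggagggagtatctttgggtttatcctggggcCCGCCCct
Windows of this length were found for 32 of the 50 members (35 windows). The GC box was in 22 of these 35 (62.9%), beside 32.7% of all 32851 windows. All windows were taken as they are, without matching to the member windows by gene type or base composition. A PPAR direct repeat (AGGTCA repeated after 1 base of any kind), searched because the series is about PPAR-gamma, was in 0 member windows and in 11 of all windows (0.0335%). A SMAD element (CAGACA) was in 2 member windows (5.71%, 17.1% of all), those of Adamtsl5 and Mmp8. These are matches of letters in the windows and no measure of binding.

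Timp2, which also helps MMP14 to activate pro-MMP2, was at 185, 219 and 255 CPM (lowest, median, highest) in wild type, at 384, 362, 346 and 502 CPM in knock-in 1, 2, 3 and 7, and at 279, 259 and 279 CPM in knock-in 4, 5 and 6. Groups did not overlap, but knock-in 5 lay only just above the highest wild-type library. Log2 fold changes were 0.65 ± 0.15 (SE, adjusted p = 0.00366) over 13 libraries and 0.86 ± 0.12 (adjusted p = 0.000111) over 10. Timp3 was at 343, 374 and 511 CPM in wild type, at 923, 1141, 769.6 and 926 CPM in knock-in 1, 2, 3 and 7, and at 500.2, 727 and 460.4 CPM in knock-in 4, 5 and 6. Knock-in 4 and 6 fell within the wild-type range, and the other 5 knock-in libraries lay above it. Its log2 fold change was 0.98 ± 0.20 (SE, adjusted p = 0.00159) and 1.26 ± 0.14 (adjusted p = 1.78e-05).

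Timp4 varied widely between libraries. In wild type its lowest, median and highest values were 16.0, 24.9 and 40.7 CPM. Knock-in 1, 2, 3 and 7 were at 12.3, 47.9, 23.2 and 9.93 CPM, so that knock-in 2 exceeded every wild-type library while knock-in 1 and 7 lay below them all. Knock-in 4, 5 and 6 were at 13.5, 6.21 and 11.7 CPM. Log2 fold changes were -0.55 ± 0.41 (SE, adjusted p = 0.282) over 13 libraries and -0.16 ± 0.45 (adjusted p = 0.799) over 10. Without knock-in 2 the value over 13 libraries was -1.02 (adjusted p = 0.0107).

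**Figure D2:**
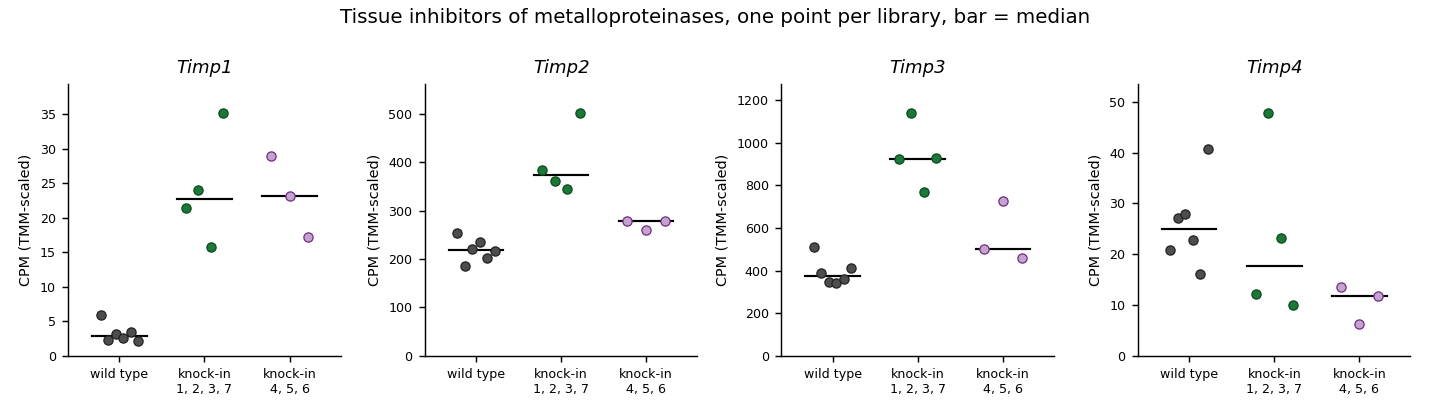
CPM after TMM scaling (vertical axes, linear, from 0) of the 4 TIMP genes, one point per library and a bar at the median, in 6 wild-type libraries, knock-in 1, 2, 3 and 7, and knock-in 4, 5 and 6. Timp1 and Timp2 show no overlap with wild type, 2 Timp3 points of knock-in 4 to 6 lie among the wild-type points, and Timp4 spreads from 6.21 to 47.9 CPM in knock-in.

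Activated fibroblast markers were also higher in knock-in, and general fibroblast markers less evenly so. All 6 activated fibroblast markers (Postn, Cthrc1, Fap, Acta2, Comp and Cilp) were higher over 13 libraries and 4 of them over 10, and their summed level was 113 to 190 TPM in wild type, 524 to 794 TPM in knock-in 1, 2, 3 and 7, and 925 to 1017 TPM in knock-in 4, 5 and 6. Of 8 general fibroblast markers 2 were higher over 13 libraries (25%) and 6 over 10 (75%), beside 23.6% and 22.3% of all genes tested. Over 13 libraries that share was thus about that of all genes. The sums of these 8 markers were 2369 to 3132 TPM, 4343 to 6185 TPM and 3898 to 4561 TPM in the same order. On the TPM scale the median of all genes also moved up (0.38 and 0.32 as log2(TPM + 1)), and the sums are not corrected for this. Between the knock-in sets the activated fibroblast sum was higher in knock-in 4, 5 and 6, whereas the TIMP sum and the general fibroblast sum were mostly lower there. None of these 14 markers was at 0 throughout. The part of fibroblasts in the change of TIMP, MMP and ADAMTS genes was not tested.

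Of the 14 MMPs, 12 were tested. Over 13 libraries 9 were higher and 1 lower, over 10 libraries 8 and 1, with a median log2 fold change of 0.93 and 0.77. Those higher were 75% and 66.7% of the class, beside 23.6% and 22.3% of all genes tested. Mmp3, or stromelysin 1, cuts proteoglycans and other matrix proteins and activates other pro-MMPs. It was at 6.66, 9.64 and 13.6 CPM in wild type, at 40.0, 69.2, 37.6 and 46.1 CPM in knock-in 1, 2, 3 and 7, and at 22.5, 29.6 and 25.2 CPM in knock-in 4, 5 and 6. The 3 groups of libraries did not overlap, with knock-in 4, 5 and 6 between the others. Its log2 fold change was 1.92 ± 0.26 (SE, adjusted p = 0.000114) over 13 libraries and 2.25 ± 0.21 (adjusted p = 1.34e-05) over 10. Mmp2, gelatinase A, had the highest wild-type median of the MMPs, 28.0 TPM (23.3 to 32.4), a range that overlaps that of Mmp15 (21.03 to 45.8 TPM). It was at 68.1, 75.6 and 82.2 CPM in wild-type libraries, at 133, 175, 129 and 181 CPM in knock-in 1, 2, 3 and 7, and at 224, 173 and 335 CPM in knock-in 4, 5 and 6. All knock-in libraries exceeded wild type, with log2 fold changes of 1.35 ± 0.19 (SE, adjusted p = 0.000139) and 1.03 ± 0.11 (adjusted p = 1.15e-05).

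Mmp14, the membrane-anchored MMP that activates pro-MMP2 at the cell surface, was at 37.4, 41.1 and 43.3 CPM in wild type. Knock-in 1, 2, 3 and 7 were at 67.6, 69.6, 59.4 and 98.2 CPM, whereas knock-in 4, 5 and 6 were at 201, 96.5 and 432 CPM. Groups did not overlap, and knock-in 4 and 6 lay far above all others. Log2 fold changes were 1.86 ± 0.45 (SE, adjusted p = 0.00523) over 13 libraries and 0.87 ± 0.12 (adjusted p = 8.13e-05) over 10. Mmp17, another membrane-anchored MMP, was at 1.76, 2.79 and 4.05 CPM in wild type, at 3.78, 5.50, 3.80 and 5.51 CPM in knock-in 1, 2, 3 and 7, and at 8.40, 6.21 and 4.49 CPM in knock-in 4, 5 and 6. Knock-in 1 and 3 lay within the wild-type range. Its log2 fold change was 0.93 ± 0.23 (SE, adjusted p = 0.00553) and 0.71 ± 0.22 (adjusted p = 0.0164). Over 10 libraries this call was lost without knock-in 2 (adjusted p = 0.0501) or without knock-in 7 (adjusted p = 0.0638).

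The windows before the starts of Mmp3 and Mmp14 (RefSeq, GRCm38.p6, both on the plus strand) are shown for a secreted and a membrane-anchored MMP that rose in both comparisons. That of Mmp3 is chr9:7445572-7445821, with capitals on an AP-1 element (TGANTCA) 46 bases before the start, and that of Mmp14 is chr14:54431348-54431597, with capitals on a pair of adjoining GC boxes 19 and 13 bases before the start.
Mmp3: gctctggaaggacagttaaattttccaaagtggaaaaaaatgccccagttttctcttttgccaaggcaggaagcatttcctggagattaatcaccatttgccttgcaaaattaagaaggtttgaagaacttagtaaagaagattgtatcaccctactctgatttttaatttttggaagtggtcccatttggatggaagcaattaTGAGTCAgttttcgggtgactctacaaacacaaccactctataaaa
Mmp14: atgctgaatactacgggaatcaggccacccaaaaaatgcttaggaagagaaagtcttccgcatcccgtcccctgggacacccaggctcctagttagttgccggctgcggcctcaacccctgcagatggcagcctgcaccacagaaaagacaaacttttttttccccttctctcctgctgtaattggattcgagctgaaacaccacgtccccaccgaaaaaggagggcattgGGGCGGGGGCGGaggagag
The AP-1 letters were found in 3 of the 35 member windows (8.57%), those of Mmp3, Mmp13 and Adam19, and in 6.75% of all windows. Over 10 libraries Mmp3 rose, Adam19 fell and Mmp13 was not called, and over 13 libraries Mmp3 and Mmp13 rose and Adam19 fell. A part of these letters in the changes was not tested.

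Mmp15, a membrane-anchored MMP, was the only member of its class that fell. It was at 83.3, 92.0 and 149 CPM in wild type, at 65.7, 50.7, 78.3 and 72.3 CPM in knock-in 1, 2, 3 and 7, and at 62.6, 45.6 and 50.2 CPM in knock-in 4, 5 and 6. On this scale the groups did not overlap. Log2 fold changes were -0.73 ± 0.16 (SE, adjusted p = 0.00260) over 13 libraries and -0.60 ± 0.16 (adjusted p = 0.01002) over 10. With library totals the call was kept over 13 libraries (-0.49, edgeR, adjusted p = 0.0253) and lost over 10 (-0.35, adjusted p = 0.123). On the log2(TPM + 1) scale, where the median of all genes was 0.38 and 0.32, the differences were -0.27 (limma, adjusted p = 0.176) and -0.18 (adjusted p = 0.437).

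The other 3 MMPs higher in both comparisons were Mmp16, Mmp19 and Mmp23, named after their values were seen. Mmp19, a secreted MMP, was at 4.52 to 7.05 CPM in wild type, at 11.05, 11.7, 10.2 and 21.9 CPM in knock-in 1, 2, 3 and 7, and at 8.16, 7.08 and 7.10 CPM in knock-in 4, 5 and 6, the last 2 barely above wild type (log2 fold change 0.94 ± 0.25, SE, adjusted p = 0.00848, and 1.26 ± 0.21, adjusted p = 0.000361). Mmp23 was at 9.37 to 16.1 CPM in wild type, at 18.4 to 27.7 CPM in knock-in 1, 2, 3 and 7, and at 13.3 to 15.5 CPM in knock-in 4, 5 and 6, within the wild-type range (0.65 ± 0.20, adjusted p = 0.0167, and 0.94 ± 0.14, adjusted p = 0.000207). Mmp16, a membrane-anchored MMP, was low, with 0.913 to 2.23 CPM in wild-type libraries against 1.49 to 3.33 CPM in knock-in. Its call over 13 libraries (0.77 ± 0.26, adjusted p = 0.0293) was lost when wild type 5, wild type 6, knock-in 1 or knock-in 7 was left out (adjusted p 0.0506 to 0.0546). Over 10 libraries (0.83 ± 0.30, adjusted p = 0.0381) it was lost without wild type 2, 5 or 6, or knock-in 1, 3 or 7 (adjusted p 0.0618 to 0.122).

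Mmp11 and Mmp13 were called over 13 libraries only, through knock-in 4, 5 and 6. Mmp11, or stromelysin 3, was at 7.97, 8.92 and 10.98 CPM in wild-type libraries. Knock-in 1, 2, 3 and 7 were close to these, at 6.98, 7.43, 9.96 and 8.91 CPM, whereas knock-in 4, 5 and 6 were at 76.8, 23.2 and 102 CPM. Over 13 libraries its log2 fold change was 1.90 ± 0.67 (SE, adjusted p = 0.0356), and over 10 it was -0.12 ± 0.13 (adjusted p = 0.470). Mmp13, a collagenase, was at 0.978, 2.20 and 3.68 CPM in wild type, at 2.42, 1.27, 1.90 and 4.14 CPM in knock-in 1, 2, 3 and 7, and at 23.9, 6.63 and 15.5 CPM in knock-in 4, 5 and 6. Log2 fold changes were 1.77 ± 0.66 (SE, adjusted p = 0.0440) and 0.09 ± 0.37 (adjusted p = 0.863). Without any 1 wild-type library both calls over 13 libraries were lost (adjusted p 0.0520 to 0.0623 for Mmp11, 0.0511 to 0.0803 for Mmp13). They were also lost without knock-in 4 (1.56, adjusted p = 0.0731, and 1.195, adjusted p = 0.104) and without knock-in 6 (1.301, adjusted p = 0.0905, and 1.53, adjusted p = 0.0852), and that of Mmp13 without knock-in 5 (adjusted p = 0.0576). With limma-voom and quality weights, which give less weight to libraries that stand apart, the values over 13 libraries were 0.04 (adjusted p = 0.916) for Mmp11 and 0.23 (adjusted p = 0.625) for Mmp13, and with the same method 0.89 for Mmp14 and 1.42 for Adamts4, both still called. Epithelial markers were high in the same 3 libraries: the summed level of 6 markers was 1760 to 2987 TPM there, 8.31 to 25.96 TPM in wild type and 13.8 to 32.5 TPM in knock-in 1, 2, 3 and 7. Of these 6 markers 3 were tested, and these 3 were higher over 13 libraries and 0 over 10, beside 23.6% and 22.3% of all genes. None of the 6 was at 0 throughout, and their part in the values of Mmp11, Mmp13 and Mmp14 was not tested.

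Mmp28, a secreted MMP also known as epilysin, was called over 10 libraries only. It was at 7.64, 8.44 and 9.71 CPM in wild type, at 14.5, 12.4, 12.7 and 15.3 CPM in knock-in 1, 2, 3 and 7, and at 6.73, 8.68 and 7.47 CPM in knock-in 4, 5 and 6. The last 3 lay in or below the wild-type range. Its log2 fold change was 0.39 ± 0.19 (SE, adjusted p = 0.109) over 13 libraries and 0.71 ± 0.11 (adjusted p = 0.000188) over 10. Without knock-in 4 the first comparison passed as well (adjusted p = 0.0388). Mmp9, gelatinase B, a product of neutrophils and macrophages, ranged from 6.09 to 8.69 CPM in wild-type libraries, from 3.96 to 16.7 CPM in knock-in, and was not called (0.17 ± 0.28, adjusted p = 0.629, and -0.15 ± 0.23, adjusted p = 0.628).

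**Figure D3:**
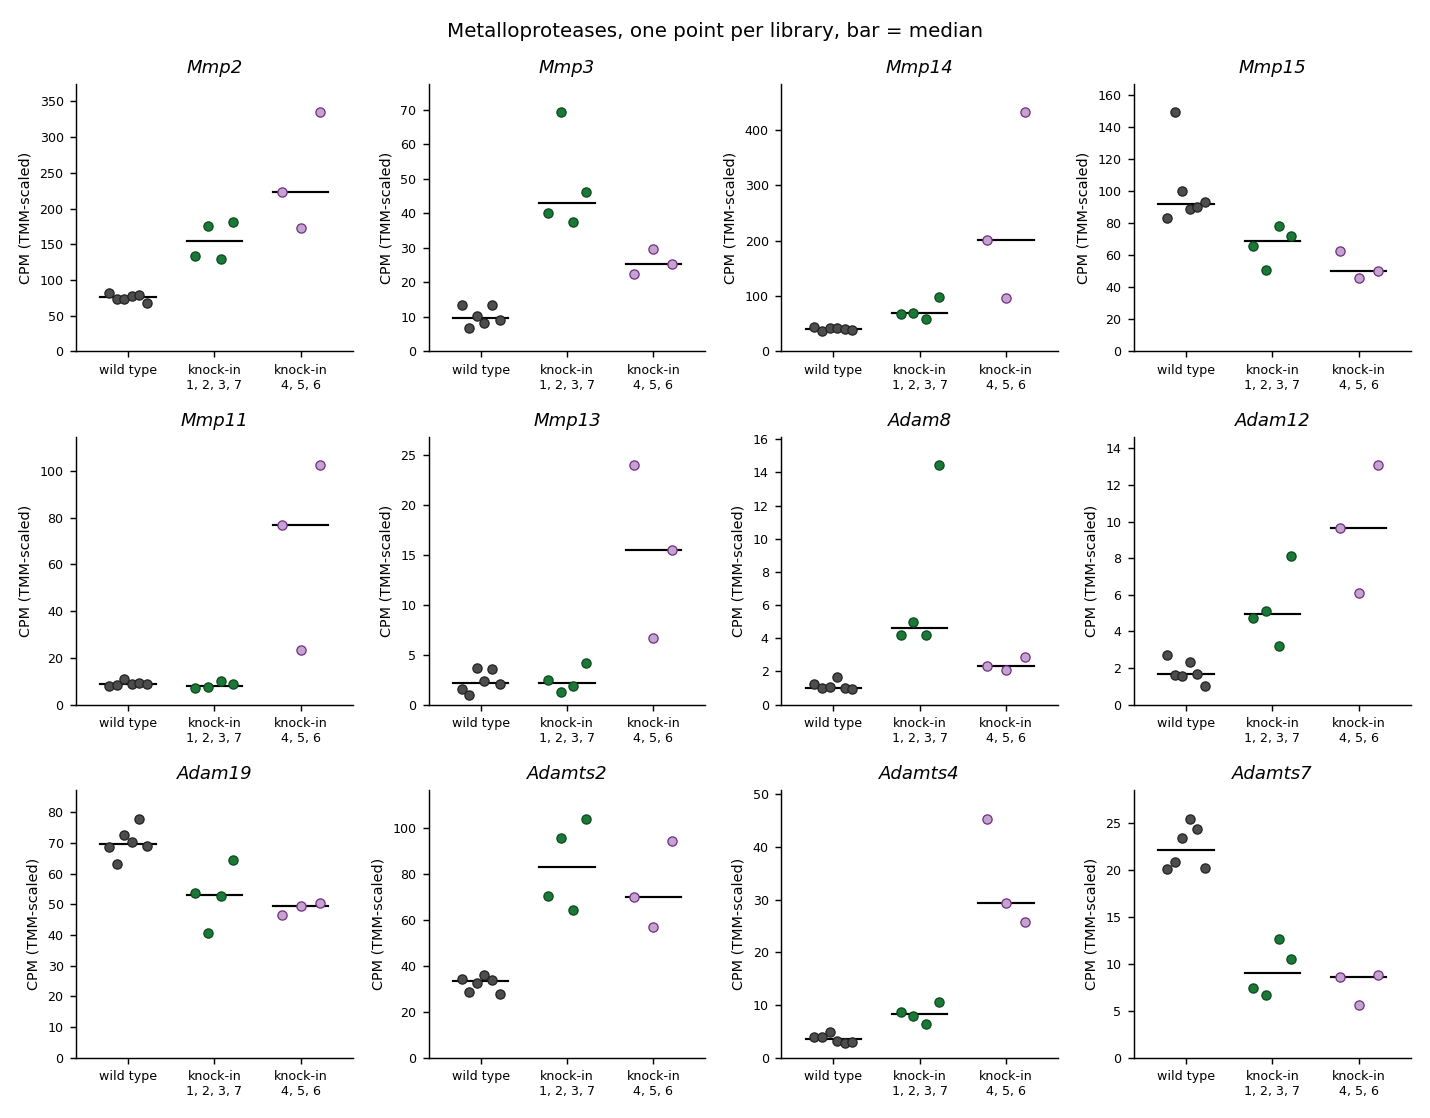
CPM after TMM scaling (vertical axes, linear, from 0) of 12 proteases, one point per library and a bar at the median, in 6 wild-type libraries, knock-in 1, 2, 3 and 7, and knock-in 4, 5 and 6. Mmp11 and Mmp13 were high in knock-in 4, 5 and 6 alone, Mmp3 and Adam8 were highest in knock-in 1, 2, 3 and 7, and Adamts7 was lower in all 7 knock-in libraries.

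All 8 ADAMs with an active site were tested: 5 were higher and 1 lower over 13 libraries, 6 and 1 over 10, with median log2 fold changes of 0.49 and 0.32. Those higher were 62.5% and 75% of these 8, beside 23.6% and 22.3% of all genes tested. Adam12, known from regenerating muscle and from activated fibroblasts, was at 1.03, 1.66 and 2.74 CPM in wild type, at 4.75, 5.12, 3.21 and 8.14 CPM in knock-in 1, 2, 3 and 7, and at 9.64, 6.09 and 13.1 CPM in knock-in 4, 5 and 6. The groups did not overlap (1.96 ± 0.32, SE, adjusted p = 0.000370, and 1.53 ± 0.28, adjusted p = 0.000649). Adam8, a protease of leukocytes, was at 0.965, 1.02 and 1.65 CPM in wild type, at 4.22, 5.01, 4.20 and 14.4 CPM in knock-in 1, 2, 3 and 7, and at 2.31, 2.09 and 2.86 CPM in knock-in 4, 5 and 6. Its highest value was in knock-in 7, and no knock-in library reached down to wild type (2.12 ± 0.43, SE, adjusted p = 0.00162, and 2.61 ± 0.35, adjusted p = 9.57e-05). Without knock-in 7 the value over 10 libraries was 1.95, still past the threshold. On the log2(TPM + 1) scale, where a low gene's change is understated, the differences were 0.87 and 0.64 for Adam12 and 1.11 and 1.47 for Adam8.

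Macrophage markers were mostly higher over 10 libraries and less evenly so over 13. Of 8 markers 4 were higher over 13 libraries and 7 over 10, beside 23.6% and 22.3% of all genes tested. The 4 not called over 13 libraries had log2 fold changes of -0.29 to 0.46, and the 1 not called over 10 was at -0.33. The summed level of the 8 markers was 756 to 947 TPM in wild type, 1479 to 2999 TPM in knock-in 1, 2, 3 and 7, and 1260 to 1354 TPM in knock-in 4, 5 and 6. Such sums are not corrected for the upward move of the median of all genes (0.38 and 0.32 as log2(TPM + 1)). Of 10 neutrophil markers 3 were tested and 1 was higher in each comparison, 33.3% beside the same shares of all genes. Their sums overlapped, at 6.90 to 55.5, 13.4 to 55.6 and 14.4 to 116 TPM, and Ly6g, a defining neutrophil marker, was at 0 in all 13 libraries. The part of leukocytes in the values of Adam8 was not tested.

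The widely expressed sheddases changed less. Adam9 was at 68.1, 71.5 and 80.8 CPM in wild type, at 94.7, 115, 92.9 and 100.3 CPM in knock-in 1, 2, 3 and 7, and at 124, 129 and 165 CPM in knock-in 4, 5 and 6 (0.67 ± 0.13, SE, adjusted p = 0.00124, and 0.45 ± 0.09, adjusted p = 0.000969). Adam10, which cuts Notch receptors and cadherins, was at 89.5, 96.8 and 103 CPM in wild type, at 125, 108, 108 and 117 CPM in knock-in 1, 2, 3 and 7, and at 171, 137 and 140.4 CPM in knock-in 4, 5 and 6 (0.43 ± 0.11, SE, adjusted p = 0.00670, and 0.26 ± 0.08, adjusted p = 0.0147). Both genes were higher in all 7 knock-in libraries than in any wild-type library. The call of Adam10 over 10 libraries was lost without knock-in 1 (0.21, adjusted p = 0.0794). Adam17, the enzyme that releases tumour necrosis factor and several ligands of the epidermal growth factor receptor, was at 49.8, 51.5 and 61.8 CPM in wild type and overlapped with knock-in at 60.5, 57.8, 67.9 and 73.2 CPM in knock-in 1, 2, 3 and 7 and 57.2, 52.8 and 53.4 CPM in knock-in 4, 5 and 6. It was called over 10 libraries only (0.19 ± 0.10, SE, adjusted p = 0.125, and 0.29 ± 0.09, adjusted p = 0.0167). Without wild type 2 it was also called over 13 libraries (adjusted p = 0.0253), and without knock-in 7 the call over 10 was lost (adjusted p = 0.0708).

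Adam15, a further ADAM higher in both comparisons and named after its values were seen, was at 75.4, 90.2 and 98.5 CPM in wild type, at 100.2, 126, 98.5 and 113 CPM in knock-in 1, 2, 3 and 7, and at 259, 108 and 96.6 CPM in knock-in 4, 5 and 6. Only knock-in 4 stood far above the rest. Its call over 13 libraries (0.55 ± 0.21, SE, adjusted p = 0.0488) was lost without any 1 wild-type library (adjusted p 0.0527 to 0.0855), knock-in 2 (adjusted p = 0.0594) or knock-in 7 (adjusted p = 0.0512), and that over 10 (0.31 ± 0.10, adjusted p = 0.0176) without knock-in 2 (adjusted p = 0.0728). Adam19, a protease required for heart development, fell. It was at 63.1, 69.8 and 77.9 CPM in wild type, at 53.6, 40.5, 52.6 and 64.3 CPM in knock-in 1, 2, 3 and 7, and at 46.4, 49.6 and 50.3 CPM in knock-in 4, 5 and 6. Knock-in 7 alone reached the wild-type range (-0.46 ± 0.10, SE, adjusted p = 0.00282, and -0.41 ± 0.11, adjusted p = 0.00823). Adam33 was not called (0.04 ± 0.23, adjusted p = 0.888, and 0.32 ± 0.21, adjusted p = 0.220).

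Of the ADAM proteins without an active site, Adam22, a receptor of secreted LGI proteins, fell and Adam23 was not called. Adam22 was at 16.0, 19.8 and 21.6 CPM in wild type, at 13.4, 13.8, 16.2 and 13.05 CPM in knock-in 1, 2, 3 and 7, and at 8.44, 9.71 and 8.01 CPM in knock-in 4, 5 and 6. Only knock-in 3 overlapped with wild type (-0.70 ± 0.17, SE, adjusted p = 0.00453, and -0.44 ± 0.11, adjusted p = 0.00533). The calls of Adam19 and Adam22 were lost on a scale that moves the median of all genes up, as given for Mmp15. On the log2(TPM + 1) scale Adam19 differed by -0.08 in each comparison (limma, adjusted p = 0.561 and 0.590) and Adam22 by -0.17 and -0.01 (adjusted p = 0.194 and 0.918). With library totals Adam19 was at -0.21 and -0.15 (edgeR, adjusted p = 0.142 and 0.301), and Adam22 kept its call over 13 libraries (-0.45, adjusted p = 0.0377) but not over 10 (-0.19, adjusted p = 0.176). Values of Adam23 were 0.12 ± 0.22 (SE, adjusted p = 0.659) and 0.29 ± 0.23 (adjusted p = 0.313).

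Of 17 ADAMTS enzymes 16 were tested. Over 13 libraries 5 were higher and 1 lower, over 10 libraries 6 and 1, and 10 and 9 were not called. The share of the class that was called was thus no more than about that of all genes tested (44.6% and 43.7%). Adamts2, the procollagen N-proteinase that trims fibrillar procollagens, was at 27.7, 33.2 and 36.1 CPM in wild type, at 70.4, 95.4, 64.2 and 104 CPM in knock-in 1, 2, 3 and 7, and at 69.9, 56.7 and 94.3 CPM in knock-in 4, 5 and 6. The groups did not overlap, and the change was nearly the same in both comparisons (1.30 ± 0.15, SE, adjusted p = 3.04e-05, and 1.38 ± 0.13, adjusted p = 7.57e-06). The related Adamts3 and Adamts14, which also process procollagens, were not called. Adamts4, an aggrecanase that also cuts versican, was at 2.80, 3.57 and 4.96 CPM in wild type, at 8.67, 7.92, 6.36 and 10.6 CPM in knock-in 1, 2, 3 and 7, and at 45.4, 29.3 and 25.8 CPM in knock-in 4, 5 and 6. The 3 groups of libraries were separate, with knock-in 4, 5 and 6 highest (2.39 ± 0.46, SE, adjusted p = 0.00130, and 1.21 ± 0.18, adjusted p = 0.000166). Epithelial markers were high in these 3 libraries as given above, and their part in Adamts4 was not tested.

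Adamts10, which binds fibrillin microfibrils, was at 58.5, 61.7 and 78.6 CPM in wild type, at 133, 97.8, 131 and 127 CPM in knock-in 1, 2, 3 and 7, and at 86.3, 98.8 and 77.4 CPM in knock-in 4, 5 and 6. Knock-in 6 alone lay in the wild-type range (0.73 ± 0.14, SE, adjusted p = 0.00113, and 0.91 ± 0.11, adjusted p = 3.01e-05). Adamts6, its closest relative, was at 5.08, 6.33 and 7.11 CPM in wild type, at 9.11, 10.7, 8.72 and 9.64 CPM in knock-in 1, 2, 3 and 7, and at 9.84, 7.88 and 15.6 CPM in knock-in 4, 5 and 6, all above wild type (0.73 ± 0.17, SE, adjusted p = 0.00362, and 0.63 ± 0.13, adjusted p = 0.00195). Adamts1, a versican-cutting enzyme named after its values were seen, was at 41.5 to 54.2 CPM in wild type, at 70.6, 106, 63.4 and 58.0 CPM in knock-in 1, 2, 3 and 7, and at 49.3, 120.2 and 63.1 CPM in knock-in 4, 5 and 6 (0.66 ± 0.19, SE, adjusted p = 0.0139, and 0.63 ± 0.15, adjusted p = 0.00367). Knock-in 4 lay in the wild-type range. Adamts5, its neighbour on the chromosome and a further aggrecanase, had a wild-type median of 8.97 TPM and was not called (-0.13 ± 0.15, adjusted p = 0.503, and 0.10 ± 0.10, adjusted p = 0.452).

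Adamts7, known to cut cartilage oligomeric matrix protein (the product of Comp), fell the most of all members. It was at 20.2, 22.1 and 25.5 CPM in wild type, at 7.46, 6.66, 12.7 and 10.6 CPM in knock-in 1, 2, 3 and 7, and at 8.64, 5.64 and 8.86 CPM in knock-in 4, 5 and 6. The groups did not overlap (-1.38 ± 0.17, SE, adjusted p = 4.37e-05, and -1.26 ± 0.16, adjusted p = 5.88e-05). It was also the 1 member that was lower on the log2(TPM + 1) scale in both comparisons, at -0.73 over 13 libraries. Adamts8 was called over 10 libraries only, and was low and uneven, at 0.567, 0.988 and 3.74 CPM in wild type, at 5.86, 8.03, 1.05 and 2.56 CPM in knock-in 1, 2, 3 and 7, and at 0.797, 2.63 and 1.00 CPM in knock-in 4, 5 and 6 (1.10 ± 0.60, SE, adjusted p = 0.147, and 1.57 ± 0.57, adjusted p = 0.0440). The groups overlapped. That call was lost without wild type 2, 3, 4, 5 or 6 (adjusted p 0.0739 to 0.0873), knock-in 1 (adjusted p = 0.116) or knock-in 2 (1.10, adjusted p = 0.148), and without wild type 1 the gene was also called over 13 libraries (1.66, adjusted p = 0.0383).

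The ADAMTS-like proteins resemble ADAMTS enzymes but have no protease domain, and several bind fibrillin microfibrils. Over 13 libraries 2 of 5 were higher and over 10 libraries 3, with 0 lower. These were 40% and 60% of a class of only 5, beside 23.6% and 22.3% of all genes tested. Adamtsl2, a binding partner of latent TGF-beta binding protein 1 and fibrillin, had the largest fold change of all members. It was at 5.95, 10.2 and 14.7 CPM in wild type, at 91.5, 105, 88.7 and 106 CPM in knock-in 1, 2, 3 and 7, and at 55.0, 46.7 and 38.5 CPM in knock-in 4, 5 and 6. Each set of libraries was separate from the others. Log2 fold changes were 2.90 ± 0.29 (SE, adjusted p = 1.33e-05) over 13 libraries and 3.26 ± 0.18 (adjusted p = 2.53e-07) over 10. Adamtsl1 was at 3.80, 4.05 and 5.00 CPM in wild type, at 8.91, 9.13, 7.67 and 12.5 CPM in knock-in 1, 2, 3 and 7, and at 6.49, 6.59 and 5.02 CPM in knock-in 4, 5 and 6 (0.92 ± 0.19, SE, adjusted p = 0.00197, and 1.18 ± 0.15, adjusted p = 5.93e-05). Knock-in 6 was only just above the highest wild-type library.

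The 250 bases before the start of Adamtsl2 (RefSeq, GRCm38.p6, chr2:27079129-27079378, plus strand) are shown for the member with the largest change, with a GC box in capitals 83 bases before the start.
Adamtsl2: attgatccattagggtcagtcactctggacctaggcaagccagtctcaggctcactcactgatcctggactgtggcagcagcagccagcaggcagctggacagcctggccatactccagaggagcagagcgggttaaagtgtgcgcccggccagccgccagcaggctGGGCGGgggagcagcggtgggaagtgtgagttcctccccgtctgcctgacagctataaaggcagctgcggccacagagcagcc
Neither the SMAD letters nor the PPAR repeat given above were found in this window.

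Adamtsl3 was called over 10 libraries only, at 10.02, 13.8 and 14.3 CPM in wild-type libraries, at 20.6, 15.4, 18.6 and 25.2 CPM in knock-in 1, 2, 3 and 7, and 11.5, 15.5 and 9.33 CPM in knock-in 4, 5 and 6 (0.34 ± 0.20, SE, adjusted p = 0.175, and 0.61 ± 0.14, adjusted p = 0.00263). Knock-in 5 alone of the last 3 lay above wild type, and without knock-in 6 the comparison over 13 libraries passed (adjusted p = 0.0473). Adamtsl4 and Adamtsl5 were not called, with values of -0.06 and -0.18 over 13 libraries and 0.10 and 0.02 over 10.

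In all, 15 tested members were called in neither comparison: Timp4, Mmp9, Adam23, Adam33, Adamtsl4, Adamtsl5 and 9 ADAMTS genes (Adamts3, 5, 9, 12, 14, 15, 17, 19 and 20). Among all 19 members not called over 13 libraries, log2 fold changes ran from -0.55 to 1.10, the highest being Adamts8, which was called over 10. Among all 17 not called over 10 libraries they ran from -0.16 to 0.62. Adamts15, a versican-cutting enzyme, came closest to the threshold (0.51 ± 0.20, adjusted p = 0.0541, and 0.42 ± 0.17, adjusted p = 0.0528). The filter on low counts removed 3 members, which were not tested. Mmp8, the neutrophil collagenase, had 0 to 6 reads in wild type and 1 to 22 in knock-in, most in knock-in 7. Mmp24 had 0 to 7 reads in wild type and 2 to 5 in knock-in 1, 2, 3 and 7, but 9.15, 29.2 and 30.5 estimated reads in knock-in 4, 5 and 6. Adamts16 had 0 or 1 reads in wild type and in knock-in 1, 2, 3 and 7, and 31, 3 and 7 in knock-in 4, 5 and 6.

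Summed per class on the TPM scale, inhibitors and proteases alike were higher in all 7 knock-in libraries than in wild type, with no overlap. On this scale the median of all genes also moved up (0.38 over 13 libraries and 0.32 over 10, as log2(TPM + 1)). The sums are not corrected for this. The 4 TIMPs summed to 144 to 228 TPM (median 170.1) in wild type, 415 to 612 TPM in knock-in 1, 2, 3 and 7, and 330.4 to 433 TPM in knock-in 4, 5 and 6. The 39 proteases summed to 229.9 to 323 TPM (median 253), 449 to 584 TPM, and 578 to 856 TPM. The order of the knock-in sets thus differed: inhibitors were mostly highest in knock-in 1, 2, 3 and 7, where only knock-in 5 of the other set exceeded their lowest value, and proteases were mostly highest in knock-in 4, 5 and 6, whose lowest value lay just under the highest of the others. TIMPs made up 37.4% to 44.5% of the TIMP and protease total in wild type, 48.0% to 51.3% in knock-in 1, 2, 3 and 7, and 27.9% to 42.9% in knock-in 4, 5 and 6. The first set lay above wild type, whereas in the second knock-in 5, at 42.9%, lay inside the wild-type range and knock-in 4 and 6 below it. Beside it stand the epithelial and fibroblast marker values given above, and their part was not tested.

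**Figure D4:**
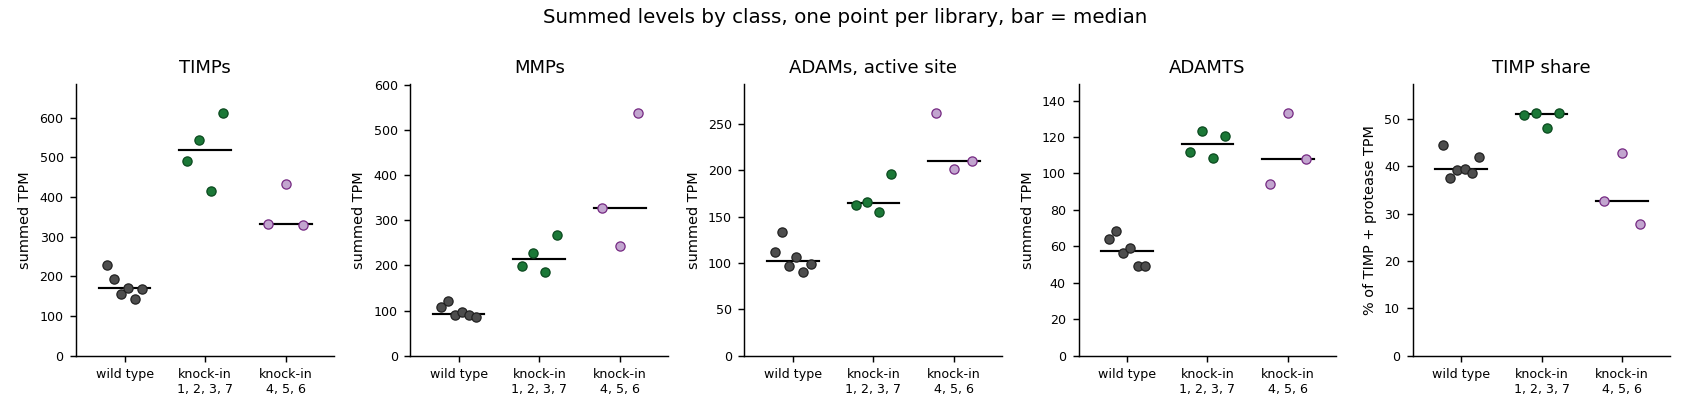
Summed TPM (vertical axes, linear, from 0) of the TIMPs, MMPs, ADAMs with an active site and ADAMTS enzymes, and the TIMP share in percent of TIMP plus protease TPM, one point per library with a bar at the median. All 4 sums are higher in knock-in than in wild type, whereas the TIMP share is above wild type in knock-in 1, 2, 3 and 7 (48.0% to 51.3%) and spreads from 27.9% to 42.9% in knock-in 4, 5 and 6. The sums are not corrected for the upward move of the median of all genes on the TPM scale.

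In the TIMP, MMP, ADAMTS and ADAMTS-like classes the shares of some members also shifted. These shares within a class do not depend on the scaling between libraries, and they are descriptions with no test. Timp1 was 1.85% to 4.29% of the TIMP sum in wild type, 7.67% to 12.3% in knock-in 1, 2, 3 and 7, and 11.5% to 17.4% in knock-in 4, 5 and 6. Timp4 was 3.66% to 8.37% in wild type, 0.863% to 4.17% in knock-in 1, 2, 3 and 7, and 0.808% to 2.00% in knock-in 4, 5 and 6. Its share in knock-in 1, 2, 3 and 7 overlapped that of wild type. Mmp15 was 21.1% to 37.8% of the MMP sum in wild type, 7.33% to 14.3% in knock-in 1, 2, 3 and 7, and 3.47% to 7.30% in knock-in 4, 5 and 6. Mmp3 was 4.23% to 8.86% in wild type and 15.9% to 24.6% in knock-in 1, 2, 3 and 7, but 4.45% to 11.8% in knock-in 4, 5 and 6, where Mmp14 took 17.4% to 33.9% (10.7% to 12.8% in wild type). Mmp2 was 26.6% to 30.1% in wild type, 31.9% to 35.3% in knock-in 1, 2, 3 and 7, and 32.2% to 38.8% in knock-in 4, 5 and 6, above wild type in both sets. Adamtsl2 was 5.26% to 12.9% of the ADAMTS-like sum in wild type, 43.6% to 48.5% in knock-in 1, 2, 3 and 7 and 30.7% to 41.0% in knock-in 4, 5 and 6. Adamts7 was 6.72% to 8.81% of the ADAMTS sum in wild type and 1.26% to 3.04% in knock-in.

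Some members share sequence with a gene on the other strand. In the GENCODE annotation of the GRCm38 build, at least 50 exon bases of 13 members overlapped exons of an opposite-strand gene: Timp3 (with Syn3), Timp4 (with Syn2), Mmp11 (with Chchd10), Mmp19 (with Tmem198b), Adam17 (with Iah1), Adamts7 (with Tbc1d2b), Mmp24, Mmp28, Adam15, Adam19, Adamts4, Adamts8 and Adamts9. Libraries were made with a stranded kit, but whether counting used the strand is not given in the sources used here, so the reads of such partners cannot be told apart. Of these, Mmp19, Mmp24, Mmp28, Adam17 and Adamts9 had values that were not whole numbers in knock-in 4, 5 and 6 and in 0 of the other 10 libraries. The part of this difference in counting in the values of these 5 genes was not tested. Timp1, Mmp2, Mmp3, Mmp14, Adamts2 and Adamtsl2 had no such partner.

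Genes that act with these families were counted from lists, beside which 23.6% of all genes tested were higher and 21.0% lower over 13 libraries, and 22.3% and 21.3% over 10. Of 23 activators and regulators of metalloproteinases 21 were tested, and 14 were higher and 1 lower over 13 libraries, 13 and 1 over 10 (median log2 fold change 0.62 and 0.54). They include Lrp1, an endocytic receptor that clears MMP and TIMP complexes (1.02 ± 0.14, SE, and 1.18 ± 0.13), and Tspan17, a partner of ADAM10 (0.96 ± 0.12 and 0.87 ± 0.12), both called in each comparison. Of 9 other matrix metalloproteases and their enhancers 7 were tested, with 5 higher and 1 lower, and 6 and 1. Pappa, which cuts IGF-binding proteins (1.09 ± 0.22 and 1.24 ± 0.16), and the procollagen C-proteinase enhancers Pcolce (0.64 ± 0.13 and 0.67 ± 0.12) and Pcolce2 (0.83 ± 0.17 and 1.07 ± 0.11) rose in both.

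Substrates and partners were counted in the same way, against the same shares of all genes (44.6% and 43.7% called in either direction). Of 8 hyalectans and link proteins 5 were tested over 13 libraries and 4 over 10, and 3 and 1 were higher. Vcan, which encodes versican, a substrate of Adamts1 and Adamts4 products, rose in both (1.64 ± 0.23, SE, and 1.28 ± 0.14). Of 20 substrates shed by ADAMs 18 were tested, with 9 higher and 3 lower over 13 libraries, and 14 and 3 over 10. The growth factors Nrg1 (3.45 ± 0.38 and 3.79 ± 0.36) and Ereg (3.36 ± 0.40 and 3.70 ± 0.35) rose and Egf fell (-1.49 ± 0.20 and -1.57 ± 0.22). Of 11 microfibril partners of ADAMTS10 and ADAMTS-like proteins 8 were higher and 1 lower over 13 libraries, 10 and 1 over 10. Ltbp2 (3.84 ± 0.27 and 4.04 ± 0.27), Mfap4 (2.25 ± 0.23 and 2.50 ± 0.21) and Ltbp3 (1.04 ± 0.11 and 1.07 ± 0.11) rose in both, and Ltbp1, named after its value was seen, was the 1 that fell (-0.34 ± 0.09 and -0.36 ± 0.08).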

How the data were processed

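Poly(A)-enriched RNA of mouse right ventricle was sequenced from stranded libraries, per the labels' protocols. DRAGEN and the build GRCm39 (mm39) are named in the submitters' processing notes. Neither annotation nor strand setting is given in the sources used here. The authors deposited 1 table per library with estimated counts, not always whole, and TPM for each gene, per the file headers. Groups come from the titles in the labels.

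Estimated counts were rounded. Genes were filtered with filterByExpr, scaled by TMM and compared by edgeR's quasi-likelihood test (edgeR 4.0.16, R 4.3.3, robust, no covariate) on all genes, with Benjamini-Hochberg adjustment and calls at an adjusted p under 0.05. This was done over 13 libraries and over the 10 without knock-in 4, 5 and 6. SE is the size of the log2 fold change over the square root of F. CPM uses TMM factors over 13 libraries, and TPM compares levels between genes. TPM settings, log2(TPM + 1) and log2(TPM + 0.1), used limma 3.58.1. Scripts were tested on simulated data.

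Members, lists and tests were chosen with earlier results of these data known. Named with values by rule are the 4 TIMPs, members called in 1 comparison, and up to 3 genes per related list. To these come up to 5 members per other class with the smallest p among those called in both comparisons. Further members and related genes called in both are marked where they appear. Outside this rule and without a mark, Mmp9, Adam23, Adam33, Adamts5, Adamts15, Adamtsl4 and Adamtsl5, called in neither comparison, are also given with values. Some items are not reported here. Alternatives were other scalings, filters and thresholds, DESeq2 1.42.0, limma-voom, an effective length offset, an indicator for knock-in 4, 5 and 6, a replicate block and leaving out each library. Sequences are RefSeq windows of GRCm38.p6, a build other than that of the tables, so no coordinates were joined to counts.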

Additional observations from a re-analysis of the deposited data

Results flagged for a closer look

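In 11 of the 66 groups of libraries checked for the named members, 1 library lay far from the others of its genotype, by the ratio of its gap to the group's range. In groups drawn from a single normal distribution such a ratio is passed by chance in about 1 in 20. That rate need not hold for the knock-in groups, which pool knock-in 4, 5 and 6 with libraries unlike them. In wild type these were Timp1 in wild type 1 (5.90 CPM, others 2.19 to 3.39), Mmp11 in wild type 3 (10.98 CPM, others 7.97 to 9.06), Mmp15 in wild type 2 (149 CPM, others 83.3 to 99.9), Adam17 in wild type 2 (61.8 CPM, others 49.8 to 52.7) and Adamts8 in wild type 1 (3.74 CPM, others 0.567 to 1.44). Among the 7 knock-in libraries, Mmp14 (432 CPM, others 59.4 to 201) and Adamts6 (15.6 CPM, others 7.88 to 10.7) stood out in knock-in 6, and Adam15 in knock-in 4 (259 CPM, others 96.6 to 126). Knock-in 7 was far above the rest for Mmp19 (21.9 CPM, others 7.08 to 11.7) and for Adam8 (14.4 CPM, others 2.09 to 5.01). Timp4 stood out in knock-in 2 (47.9 CPM, others 6.21 to 23.2).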

How the results depend on the processing

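The count of called members stayed within 1.5 times its value under every setting tried: 22 to 33 over 13 libraries (28 as reported) and 22 to 34 over 10 (30 as reported). Leaving out 1 library gave 24 to 30 and 27 to 30. The labels do not say whether replicate numbers pair the libraries, and so few correlations cannot decide it. Deviations of same-numbered libraries correlated at -0.02 to 0.24 over 3 numbers in 10 libraries. There numbers 1 and 2 correlated best with their own number and number 3 did not. Over 13 libraries the correlations ran from -0.11 to 0.08, and none was best with its own number. With the replicate block 24 and 22 members were called. Over 13 libraries the block lost the calls of Mmp11, Mmp13, Mmp16, Mmp23 and Adam15. Over 10 libraries it lost those of Mmp15, Mmp16, Mmp17, Adam10, Adam15, Adam17, Adam22, Adamts6 and Adamts8. Reversed signs were seen for Timp4, Mmp11 and Mmp13, none of them called in the comparison concerned except Mmp11 over 13 libraries. There Mmp11 was at -0.12 with an indicator for knock-in 4, 5 and 6. Over 10 libraries Mmp11 was at 0.13 with library totals, 0.20 with log2(TPM + 1), 0.20 with log2(TPM + 1) and no filter, and 0.24 with log2(TPM + 0.1). Timp4 over 10 libraries was at 0.062, 0.035, 0.035 and 0.025 under these settings, and from -0.80 to 0.10 when 1 library was left out, with 0.01 without wild type 6, 0.05 without knock-in 1 and 0.10 without knock-in 7. Mmp13 over 10 libraries was at -0.0061 with the replicate block and from -0.32 to 0.29 with 1 library left out, with -0.32 without knock-in 7 and -0.08 without wild type 2. The cause of these reversals was not tested. Of the values with 1 library left out, 29 of those over 13 libraries and 18 over 10 lost a call, and 5 over 13 gained one. Under the other settings 26 and 23 lost a call and 20 over 13 gained one. Members at a few CPM (Mmp13, Mmp16, Adamts8) rest on few reads, and Mmp8, Mmp24 and Adamts16 could not be tested at this depth.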

Other observations

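Of 35 further genes of these families in the tables that were not in the list, 5 passed the filter, and Mmp12 and Mmp27 were higher in both comparisons. Mmp12, the macrophage elastase, was at 1.21 to 3.19 CPM in wild type and at 35.0 to 449 CPM in knock-in 1, 2, 3 and 7. The highest of these 4 values lay far above their median of 53.0 CPM. Knock-in 4, 5 and 6 were at 18.8 to 53.8 CPM. Log2 fold changes of Mmp12 were 5.67 ± 0.88 (SE, adjusted p = 0.000328) over 13 libraries and 6.27 ± 0.92 (adjusted p = 0.000840) over 10. Mmp12 exceeded every listed member in fold change. Mmp27 was at 0.160 to 0.717 CPM in wild type and 0.398 to 1.61 CPM in knock-in, with overlap (1.19 ± 0.42, adjusted p = 0.0337, and 1.502 ± 0.41, adjusted p = 0.00955). Adam5 was called over 10 libraries only (1.26 ± 0.37, adjusted p = 0.0142).

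Several members lie next to each other or inside other genes in the RefSeq order of GRCm38.p6. Mmp13 neighbours Mmp12, and Mmp8 neighbours Mmp10 and Mmp27. Mmp13 was not called over 10 libraries, in which Mmp12 rose. Timp1, Timp3 and Timp4 lie within the synapsin genes Syn1, Syn3 and Syn2, and none of the 3 host genes was called in either comparison (over 10 libraries -0.37 ± 0.57, -0.65 ± 0.37 and 0.35 ± 0.51). Timp4 also neighbours Pparg, the gene of PPAR-gamma.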
